A study of Homo sapiens with 8 samples.

Results

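The phagocyte NADPH oxidase is the enzyme with which neutrophils and macrophages make superoxide, the first product of the oxidative burst. Its 5 subunit genes examined here were CYBB, CYBA, NCF1, NCF4 and RAC2, chosen by gene symbol as subunits of this complex. They are 5 of the 26475 genes in the deposited table, and all 5 passed the filter on low counts that left 12401 genes for testing.

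RNA was sequenced in bulk from MOLM-13, an established human acute myeloid leukemia line with a KMT2A rearrangement (MLL-AF9). All cells were labelled WT, and the 4 groups received the combination of both inhibitors, VTP50469 alone, WM1119 alone (spelled WM119 in the sample labels) or the solvent DMSO. VTP50469 inhibits Menin, the KMT2A partner encoded by MEN1, and WM1119 inhibits the histone acetyltransferase KAT6A. Each group had 2 libraries, 8 in all from 1 cell line, and no source used here states the dose, the duration or if the 2 libraries of a group were separate cultures. The p-values therefore measure only the spread between these libraries, which may be technical.

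In resting phagocytes the catalytic core sits in membranes as a dimer, cytochrome b558, made of gp91phox (NOX2, encoded by CYBB) and p22phox (encoded by CYBA). The regulatory subunits p47phox (NCF1) and p40phox (NCF4) wait in the cytosol. On activation, phosphorylated p47phox docks on p22phox and brings its cytosolic partners to the membrane, where the GTPase RAC2 joins in its GTP-bound form and electrons flow from NADPH to oxygen. Inherited loss of CYBB, CYBA, NCF1 or NCF4 causes chronic granulomatous disease, in which phagocytes fail to kill ingested microbes, and CYBB is commonly used as a sign of late myeloid maturation.

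Promoter sequences are shown for the 3 of the 5 genes that were matched in the table used here, to set their motifs side by side. RefSeq promoter windows (GRCh38.p14, 250 bases before to 50 bases after the start of the gene, 5′ to 3′ on the gene's strand) were matched for CYBB, CYBA and NCF1, and NCF4 and RAC2 are named only. Capitals mark the PU.1 core GAGGAA, searched on both strands, which in the CYBB and NCF1 windows lies on the opposite strand and so reads TTCCTC. PU.1, encoded by SPI1, is the myeloid transcription factor described at the CYBB and NCF1 promoters. The windows are CYBB at chrX:37779809-37780108 (plus strand), NCF1 at chr7:74773761-74774060 (plus strand) and CYBA at chr16:88651004-88651303 (minus strand).
CYBB: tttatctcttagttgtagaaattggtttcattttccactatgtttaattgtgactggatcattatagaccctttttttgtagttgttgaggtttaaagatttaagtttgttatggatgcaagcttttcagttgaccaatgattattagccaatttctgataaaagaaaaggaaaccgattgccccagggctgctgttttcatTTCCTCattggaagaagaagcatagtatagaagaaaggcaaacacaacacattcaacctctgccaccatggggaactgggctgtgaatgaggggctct
NCF1: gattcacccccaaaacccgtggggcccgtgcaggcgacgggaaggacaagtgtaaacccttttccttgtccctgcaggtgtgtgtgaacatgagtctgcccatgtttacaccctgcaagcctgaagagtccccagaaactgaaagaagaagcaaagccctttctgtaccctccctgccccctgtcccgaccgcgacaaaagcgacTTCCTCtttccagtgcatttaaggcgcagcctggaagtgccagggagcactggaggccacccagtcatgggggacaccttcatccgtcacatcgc
CYBA: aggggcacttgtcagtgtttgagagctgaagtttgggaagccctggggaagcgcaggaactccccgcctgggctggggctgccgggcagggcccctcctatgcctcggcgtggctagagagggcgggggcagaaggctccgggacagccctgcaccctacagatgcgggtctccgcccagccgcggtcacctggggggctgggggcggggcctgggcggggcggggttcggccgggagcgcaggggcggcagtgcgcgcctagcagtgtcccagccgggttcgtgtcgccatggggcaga

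The first base of the PU.1 core lay at -48 in CYBB and at -45 in NCF1, counted from the RefSeq start, and the CYBA window held no match. The RefSeq start differs from the outer end of the GENCODE gene given further on by 41 bases in CYBB (37780059 against 37780018) and by 30 bases in CYBA, and is the same base in NCF1. The same letters occur in 27.8% of the 16199 promoters of the table. GAAANNGAA, a motif of interferon regulatory factors found in 7.19% of promoters, occurred in CYBB at -224 and -86 and in NCF1 at -116. The CYBA window instead held 6 matches to the GC box CCGCCC, a motif of 56% of promoters, and its GC content was 72.7%, against 57.3% in NCF1 and 37.7% in CYBB. Neither TATAAA (9.63% of promoters) nor the C/EBP motif TTNNGCAA (8.68%) occurred in any of the 3 windows. A match is a description of letters and not evidence of binding.

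Values are given as CPM (counts per 1000000 counts of a library) on TMM-scaled library sizes, and a gene was called changed at a Benjamini-Hochberg adjusted p under 0.05 over all 12401 genes in edgeR's quasi-likelihood test, with all 8 libraries in 1 fit. Totals ran from 18092906 to 23634468 expected counts per library. One library stood apart by the size of its differences. In combination replicate 2, differences from the DMSO mean fell with transcript length (Spearman correlation -0.50 across 11416 genes, which are not independent replicates), against -0.12 in combination replicate 1 and between -0.26 and 0.09 in the VTP50469 libraries and WM1119 replicate 2. WM1119 replicate 1 had -0.48, with smaller differences (median log2 0.27 over the genes under 1500 bases). Lengths in these trends are those of the longest transcript of a gene. In combination replicate 2 the median log2 difference was 0.77 over the 985 genes with transcripts of that length (under 1500 bases) and -0.46 over genes above 4000 bases, and it had counts for 12976 genes, against 14142 to 14546 in the other libraries. The subunits and the named genes around them are therefore also described without combination replicate 2.

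The myeloid identity of the line was checked on its markers. All 10 markers of the myeloid line were detected and tested, and in the combination against DMSO they went both ways. Of them 5 were called higher and 2 lower (FLT3 and MEIS1, log2 changes -1.10 and -2.15). Over all genes tested 5.85% were called higher and 3.44% lower. The median log2 change of the 10 markers was 0.44. Their summed level was 7214 and 9339 CPM in the combination, 2488 to 2920 CPM with VTP50469, 2282 to 2357 CPM with WM1119 and 1263 to 1307 CPM in DMSO, and LYZ alone gave 6374 and 8431 CPM of it in the combination, against 541 and 598 CPM in DMSO. Most tested markers of mature monocytes and neutrophils were also higher in the combination than in DMSO. Of 12, 8 passed the count filter. In the combination 6 of 8 were called higher (S100A8, S100A9, ITGAM, MMP9, CSF1R and CXCR2, log2 changes 6.27, 5.83, 3.42, 3.18, 2.64 and 1.62) and MPEG1 lower (-1.66), again beside 5.85% and 3.44% of all genes tested. The median log2 change of the 8 was 3.10. Without combination replicate 2 that median was 2.47. With VTP50469 7 of 8 had a log2 change above 0 (median 1.07) and with WM1119 also 7 of 8 (median 0.94), none of them called. Over all genes tested, 0.153% were called higher with VTP50469 and 0% with WM1119. The list summed to 145 to 293 CPM in the combination, 45.4 to 50 CPM with VTP50469, 65.4 to 65.5 CPM with WM1119 and 46.2 to 48.7 CPM in DMSO, of which MPEG1 made 14.2 and 6.14 CPM in the combination, 15.1 and 12.6 CPM with VTP50469, 31.8 and 36.8 CPM with WM1119 and 32.6 and 32.3 CPM in DMSO. FCGR3A and CEACAM8 were at 0 in every library. Erythroid, dendritic, megakaryocyte and B cell markers summed to at most 3.59 CPM and epithelial and stromal markers to at most 4.96 CPM in any library, and the T and NK list reached 84.3 CPM in the combination, against 25.1 CPM in DMSO, with CD3E and CD3G at 0 and most of its sum from NKG7 (30.3 and 82.1 CPM in the combination, against 20.6 and 19.2 CPM in DMSO). In bulk RNA, more cells of a type and more RNA per cell cannot be told apart, and the part of these markers in the results below was not tested.

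CYBB, the catalytic subunit, had the largest called change of the 5. Its transcript rose in the combination and with VTP50469 alone, and it was the only one of the 5 genes called with a single inhibitor. CYBB is on chromosome X at 37780018-37813461 (hg38, plus strand), with a canonical transcript of 13 exons and 4276 bases. It measured 272 and 190 CPM in the combination, 121 and 144 CPM with VTP50469, 53.2 and 52.5 CPM with WM1119, and 38.6 and 40.4 CPM in DMSO. No library of one group overlapped another group, and the order was combination, VTP50469, WM1119, DMSO. With 2 libraries a group, this and the separations given below are descriptions, without the share of all genes that show one. Against DMSO the combination was 5.84-fold higher (log2 change 2.55, SE 0.20, 95% interval 2.06 to 3.03, edgeR adjusted p = 0.00212), and VTP50469 was 3.35-fold higher (log2 change 1.75, SE 0.20, 95% interval 1.28 to 2.22, edgeR adjusted p = 0.0352). By p-value it ranked 32nd of 12401 genes in the first comparison and 19th in the second.

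WM1119 alone left CYBB at 1.34 times the DMSO level, with a log2 change of 0.42 (95% interval -0.04 to 0.88, edgeR adjusted p = 1). The combination was 4.36-fold above WM1119 (log2 change 2.13, SE 0.20, edgeR adjusted p = 0.00943), a called difference. It was 1.74-fold above VTP50469 (log2 change 0.80, SE 0.19, 95% interval 0.34 to 1.26), which was not called (edgeR adjusted p = 0.128). CYBB was lower in combination replicate 2 than in replicate 1, the opposite order to CYBA, NCF1 and NCF4. Its increase over DMSO was 2.79 on the log2 scale without replicate 2 and 2.25 without replicate 1, and it was called in each of the 8 fits that left out 1 library (edgeR adjusted p from 2.28e-05 to 0.0455). The VTP50469 call was less stable. It was lost when any 1 library of VTP50469, WM1119 or DMSO was left out, with log2 changes of 1.60 to 1.87 and an edgeR adjusted p of up to 0.618, and was kept without either combination library.

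**Figure D1:**
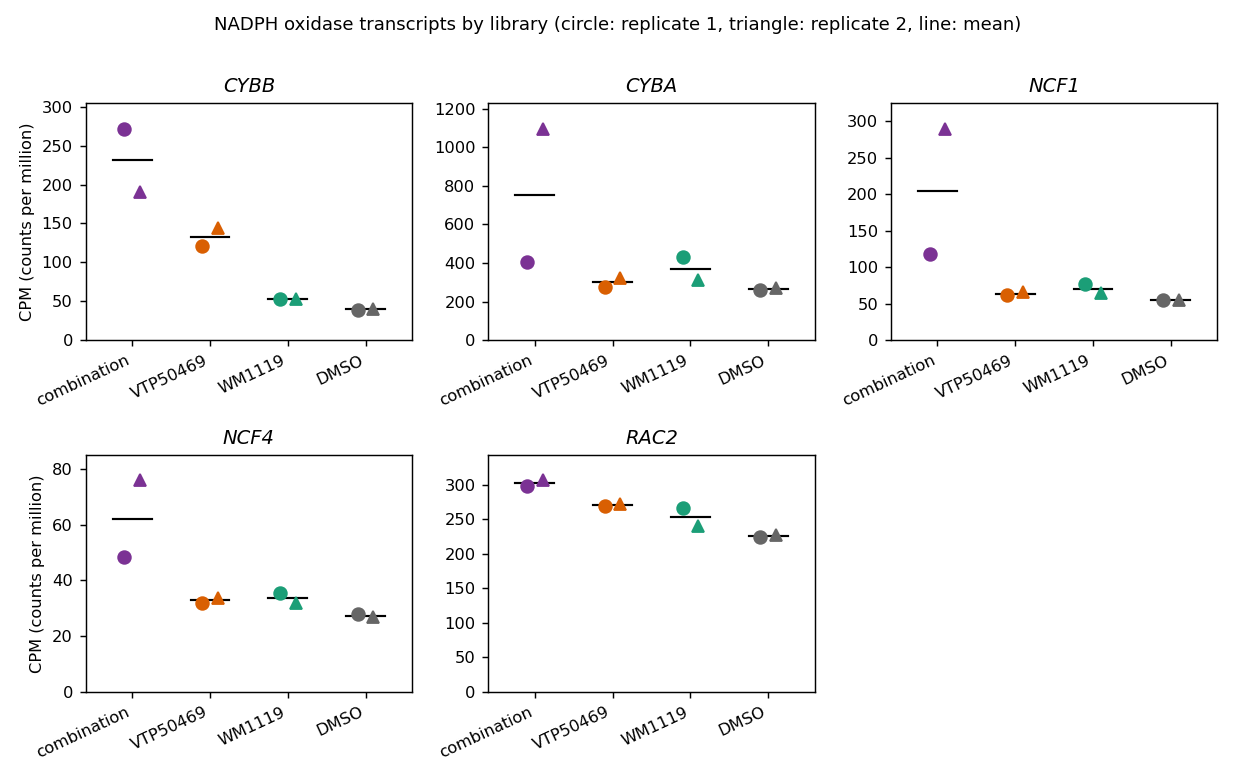
CPM (vertical axis, linear from 0) of the 5 subunit genes in each library, by treatment (horizontal axis: combination, VTP50469, WM1119, DMSO); circles are replicate 1, triangles replicate 2 and lines the mean of 2. CYBB is high in both combination libraries (272 and 190 CPM) and with VTP50469 (121 and 144 CPM), whereas CYBA and NCF1 are highest in combination replicate 2 (1097 and 290 CPM).

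CYBA encodes p22phox, the second chain of the membrane dimer, which stabilizes gp91phox and offers the docking site for p47phox. Unlike CYBB it was not called in any comparison of the edgeR fit to all libraries with the count filter and without offsets. DESeq2 called it in the combination against DMSO (adjusted p = 0.00397) and against VTP50469 (adjusted p = 0.0338). With no count filter edgeR called it in the combination against DMSO (log2 change 1.48, edgeR adjusted p = 0.044). The gene is on chromosome 16 at 88643275-88651083 (hg38, minus strand), and its canonical transcript is short, with 6 exons and 692 bases. CYBA measured 404 and 1097 CPM in the combination, 277 and 324 CPM with VTP50469, 429 and 312 CPM with WM1119, and 260 and 269 CPM in DMSO. The combination libraries differed 2.71-fold from each other, and combination replicate 1 lay below WM1119 replicate 1. The log2 change was 1.51 in the combination against DMSO (SE 0.43, 95% interval 0.49 to 2.52, edgeR adjusted p = 0.0749), 0.18 with VTP50469 (95% interval -0.81 to 1.18) and 0.49 with WM1119 (95% interval -0.51 to 1.49).

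What the combination did to CYBA depended on 1 library. Without combination replicate 2 the log2 change against DMSO was 0.63 (edgeR adjusted p = 0.0531), and without replicate 1 it was 2.04 (edgeR adjusted p = 0.000108), each with 1 combination library assumed to vary like the other groups. Offsets fitted to the trend on the longest transcript, which has 1969 bases for CYBA, gave 1.15 (edgeR adjusted p = 0.0467). Whether they remove the trend for its canonical transcript of 692 bases was not tested. Against WM1119 the difference of 1.02 shrank to 0.15 without combination replicate 2. The length trend of that library moves with the CYBA value, and its part in it was not tested further.

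NCF1 encodes p47phox, the organizer subunit whose phosphorylation starts assembly. It rose in the combination and was not called with either inhibitor alone. NCF1 is on chromosome 7 at 74774011-74789315 (hg38, plus strand), with 11 exons and 1349 bases in the canonical transcript. It measured 118 and 290 CPM in the combination, 61.8 and 65.4 CPM with VTP50469, 77 and 64 CPM with WM1119, and 55.6 and 55.5 CPM in DMSO. Both combination libraries lay above all others, though replicate 2 was far higher than replicate 1. The combination was 3.67-fold above DMSO (log2 change 1.88, SE 0.38, 95% interval 0.96 to 2.79, edgeR adjusted p = 0.0315). The log2 change was 0.20 with VTP50469 (95% interval -0.69 to 1.08) and 0.34 with WM1119 (95% interval -0.54 to 1.23), and both intervals include 0. The combination value was 1.10 without combination replicate 2 and 2.37 without replicate 1. With length offsets, which took the longest transcript of NCF1 (2354 bases), it was 1.61 (edgeR adjusted p = 0.0155).

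NCF1 values are uncertain because the gene has near-identical pseudogenes on the same chromosome, NCF1B and NCF1C, between which counting can split reads. NCF1 held 56.0% to 60.6% of the counts of the 3 copies in the 8 libraries (95% Wilson intervals from 54.1% to 57.9% in VTP50469 replicate 2 and from 58.6% to 62.6% in WM1119 replicate 2, which cover counting error only). The lowest and the highest share, picked from the 8 libraries, had intervals that did not overlap. These intervals leave out errors in assigning reads to a copy. The NCF1B share was 12% and 15.1% in the combination, 8.59% to 12% with the single inhibitors, and 8.66% and 8.6% in DMSO. Both pseudogenes were themselves called in the combination. NCF1B measured 24.6 and 78.1 CPM in the combination, against 8.06 and 8.02 CPM in DMSO (log2 change 2.67, edgeR adjusted p = 0.0308), and NCF1C 63 and 150 CPM in the combination, against 29.4 and 29.5 CPM in DMSO (log2 change 1.85, edgeR adjusted p = 0.0334). Summed over the 3 copies before the fit, the log2 change was 1.96 (edgeR adjusted p = 0.0308).

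NCF4 encodes p40phox, which binds phosphatidylinositol 3-phosphate and holds the oxidase active on phagosomes. It rose in the combination and was not called with either inhibitor alone. NCF4 is on chromosome 22 at 36860988-36878017 (hg38, plus strand), with 10 exons and 1378 bases, and an antisense gene, NCF4-AS1, which has no row in the table, overlaps 27 of the 2239 exonic bases of NCF4, whose reads cannot be told apart without strand. It measured 48.3 and 76 CPM in the combination, 32 and 33.6 CPM with VTP50469, 35.4 and 31.9 CPM with WM1119, and 27.8 and 27 CPM in DMSO. The treated libraries were all above both DMSO libraries, a description with 2 libraries a group, and the VTP50469 and WM1119 libraries overlapped. The combination was 2.27-fold above DMSO (log2 change 1.18, SE 0.22, 95% interval 0.66 to 1.71, edgeR adjusted p = 0.0244). Under the single inhibitors NCF4 differed from DMSO by 0.26 with VTP50469 (95% interval -0.26 to 0.78) and by 0.30 with WM1119 (95% interval -0.22 to 0.82). The combination value was 0.83 without combination replicate 2 (edgeR adjusted p = 0.0039) and 0.80 with length offsets (edgeR adjusted p = 0.00707).

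The NCF1 and NCF4 calls in the combination depended on the libraries in the fit. Leaving out any 1 library of VTP50469, WM1119 or DMSO removed both calls, with edgeR adjusted p of up to 0.225 for NCF1 and 0.200 for NCF4, while the log2 changes stayed between 1.86 and 1.87 and between 1.15 and 1.19.

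RAC2 encodes the hematopoietic GTPase that switches the assembled enzyme on, and it also serves migration and actin control outside the oxidase. Its change in the combination was the smallest of the 5. RAC2 is on chromosome 22 at 37225270-37259594 (hg38, minus strand), with 7 exons and 1472 bases. It measured 298 and 307 CPM in the combination, 270 and 272 CPM with VTP50469, 266 and 241 CPM with WM1119, and 225 and 227 CPM in DMSO. All treated libraries were above both DMSO libraries, by small margins. The log2 change was 0.42 in the combination (SE 0.12, 95% interval 0.14 to 0.69, edgeR adjusted p = 0.0691), 0.26 with VTP50469 (95% interval -0.01 to 0.53) and 0.16 with WM1119 (95% interval -0.11 to 0.44). The combination value passed the threshold when either combination library was left out (log2 change 0.43 without replicate 1 and 0.41 without replicate 2, edgeR adjusted p = 0.0069 and 0.0297), and it was 0.05 with length offsets (edgeR adjusted p = 0.825).

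**Figure D2:**
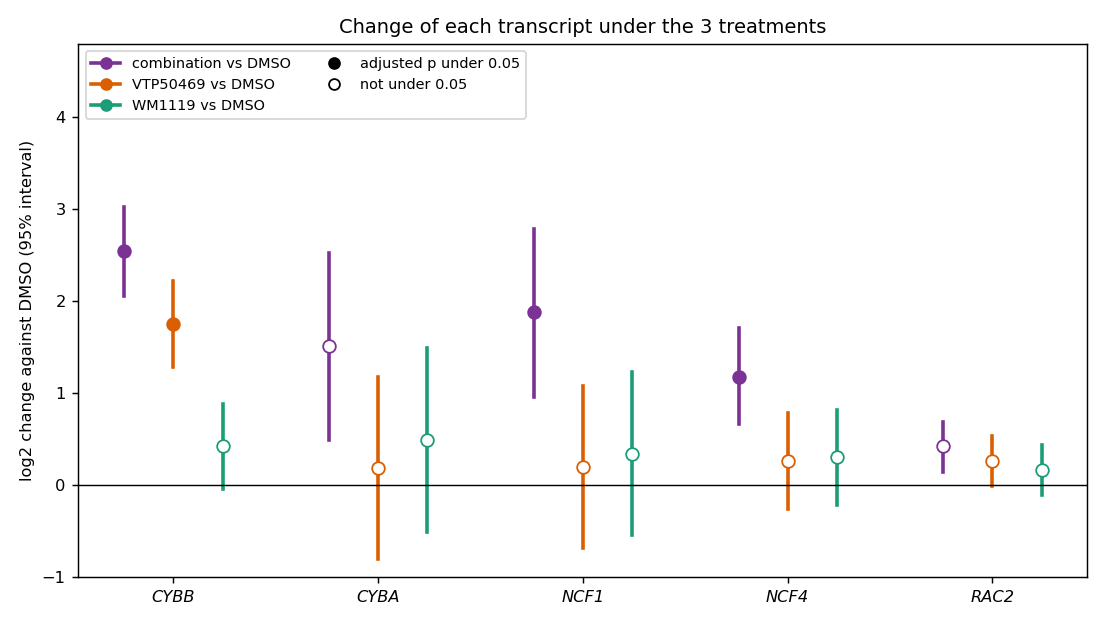
Log2 change against DMSO (vertical axis) with its 95% interval from edgeR for the 5 subunit genes (horizontal axis), by treatment; filled points have an adjusted p under 0.05 and open points do not. CYBB is the only gene with a filled point for VTP50469 (1.75), no WM1119 point is filled, and the combination points run from 0.42 (RAC2) to 2.55 (CYBB).

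Levels of different subunits were compared per kilobase of the canonical transcript. By this length CYBA was the most abundant of the 5 transcripts in every group. CYBA averaged 1085 CPM per kb in the combination, 434 with VTP50469, 536 with WM1119 and 382 in DMSO. CYBB averaged 54 CPM per kb in the combination, 30.9 with VTP50469, 12.3 with WM1119 and 9.24 in DMSO. The catalytic subunit thus stood far below its partner in DMSO. NCF1 averaged 151 CPM per kb in the combination, against 41.1 in DMSO, and RAC2 averaged 205 in the combination, against 154 in DMSO. By this length NCF4 lay above CYBB in the DMSO and WM1119 means and below it in the other 2, with NCF4 at 45.1 CPM per kb in the combination, 23.8 with VTP50469, 24.4 with WM1119 and 19.9 in DMSO. The order of this pair is not firm, since NCF4 was above CYBB in combination replicate 2 (55.2 and 44.3 CPM per kb), and by the median transcript length CYBB was above NCF4 in every group (42.7 and 25.6 CPM per kb with WM1119, 32 and 20.9 in DMSO).

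The balance of the 2 chains of the membrane dimer was followed by library. The ratio of CYBB to CYBA per kilobase was 0.109 and 0.028 in the combination, 0.0707 and 0.0719 with VTP50469, 0.0201 and 0.0272 with WM1119, and 0.0241 and 0.0243 in DMSO. Both VTP50469 libraries and combination replicate 1 were above the DMSO libraries, and combination replicate 2 was near them. In that library short genes were raised and long genes lowered (median log2 differences 0.77 under 1500 bases and -0.46 above 4000 bases). These lengths are of the longest transcript, by which CYBA has 1969 bases and falls in a middle class with a median of 0.37. The canonical transcripts of CYBB and CYBA have 4276 and 692 bases, and the part of this trend in the ratio was not tested. The ratio of NCF1 to CYBA was more even, at 0.149 and 0.136 in the combination, 0.115 and 0.104 with VTP50469, 0.092 and 0.105 with WM1119, and 0.11 and 0.106 in DMSO. These ratios are descriptions with 2 libraries a group. The values depend on the length used, since CYBA transcripts in GENCODE release 44 reach 1969 bases: with the longest transcript CYBA averaged 153 CPM per kb with VTP50469 and 134 in DMSO, below RAC2 (184 with VTP50469 and 154 in DMSO).

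The number of subunits called was read beside the share of all genes called in the same comparison. In the combination against DMSO 3 of 5 were called higher (CYBB, NCF1 and NCF4) and none lower, where 5.85% of all genes tested were called higher and 3.44% lower. DESeq2 called all 5 higher, with 10.2% of its genes called higher. With length offsets 4 of 5 were called higher (9.29% of all genes), the exception being RAC2, and without combination replicate 2 also 4 of 5 (8.9% of all genes), the exception being CYBA. With VTP50469 1 of 5 was called higher by edgeR (0.153% of all genes) and by DESeq2 (0.991%), in both cases CYBB. With WM1119 edgeR called 0 of 5 (0% of all genes), none of the 5 had an unadjusted p under 0.05, and DESeq2 also called 0 of 5 (0.393% of its genes). The 3 comparisons share the DMSO libraries.

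Adding one inhibitor to the other was compared in the same fit. In the combination against WM1119 1 of 5 was called higher by edgeR (CYBB, where 1.02% of all genes were called), and 3 of 5 by DESeq2 (CYBB, NCF1 and NCF4, 3.48%). The CYBB call was lost without either WM1119 library or without DMSO replicate 1. In the combination against VTP50469 edgeR called 0 of 5 (0.234% of all genes), although 4 of 5 had an unadjusted p under 0.05 (not RAC2), and DESeq2 called those 4 higher (3.65%). The log2 changes there were 1.32 for CYBA, 0.80 for CYBB, 1.68 for NCF1, 0.92 for NCF4 and 0.16 for RAC2 (95% interval -0.12 to 0.43). Leaving out combination replicate 1 gave 4 calls (26.6% of all genes were then called higher), and leaving out replicate 2 gave 2, CYBB and NCF1 (1.72% of all genes). The sizes rested on these libraries: without replicate 2 the log2 change was 0.44 for CYBA, 0.90 for NCF1 and 0.57 for NCF4, and without replicate 1 that of CYBB was 0.50.

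Whether the combination exceeded the sum of the single inhibitors was tested as an interaction on the log2 scale. None of the 5 genes was called higher by edgeR or DESeq2 (0% and 0.0183% of all genes), and NCF1 alone had an unadjusted p under 0.05. Its excess was 1.34 (SE 0.53, 95% interval 0.08 to 2.59, edgeR adjusted p = 0.938). The excess was 0.83 for CYBA (95% interval -0.58 to 2.25), 0.62 for NCF4 (95% interval -0.11 to 1.36), 0.38 for CYBB (95% interval -0.27 to 1.03) and -0.01 for RAC2 (95% interval -0.39 to 0.38). Without combination replicate 1 the excess was called for CYBA (1.37), NCF1 (1.83) and NCF4 (0.90), where 12.4% of all genes were called higher. Without replicate 2 none of the 5 was called (0% of all genes), and the excess was -0.04 for CYBA, 0.56 for NCF1 and 0.28 for NCF4.

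**Figure D3:**
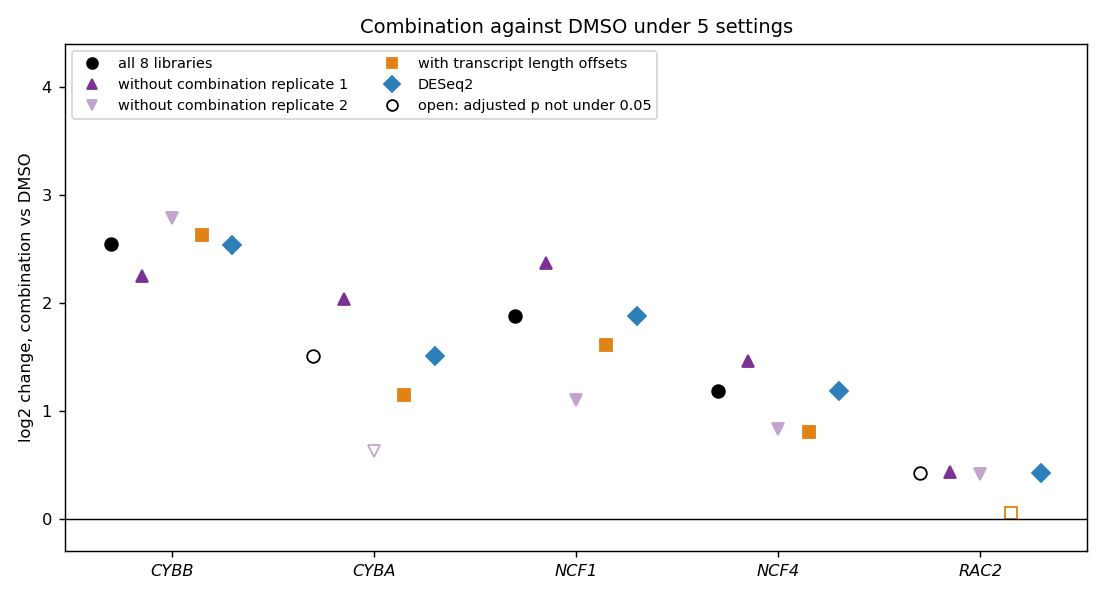
Log2 change of the combination against DMSO (vertical axis) for the 5 subunit genes (horizontal axis) with all 8 libraries, without combination replicate 1, without combination replicate 2, with transcript length offsets and with DESeq2; open points have an adjusted p that is not under 0.05. CYBB (2.25 to 2.79) stays high in all 5 settings, whereas CYBA spans 0.63 to 2.04 and RAC2 drops to 0.05 with length offsets.

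Partners of the complex and the NCF1 copies were followed as a list of 7 symbols, of which 6 were tested. In the combination 2 of 6 were called higher (NCF1B and NCF1C) and none lower, beside 5.85% and 3.44% of all genes tested. The median log2 change was 0.59, against 0.01 over all genes. Both calls are of copies that can share reads with NCF1, and without them 0 of 4 partners were called and the median was 0.32. C17orf62, the chaperone also called EROS or CYBC1 that the cytochrome dimer needs to mature, measured 112 and 172 CPM in the combination, against 75.9 and 81.1 CPM in DMSO (log2 change 0.86, edgeR adjusted p = 0.0504). RAP1A, a GTPase that copurifies with cytochrome b558, had a log2 change of 0.31 (edgeR adjusted p = 0.182). RAC1, the ubiquitous relative of RAC2, had one of 0.33 (edgeR adjusted p = 0.227). RAP1GDS1, an exchange factor for small GTPases, had one of -0.48 (edgeR adjusted p = 0.0798). None of the 10 genes of other NADPH oxidases and their partners, such as NOX1, NOX4 and DUOX1, passed the count filter.

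Kinases and lipid enzymes that activate the oxidase had 5 of 21 genes called higher and none lower in the combination, beside 5.85% and 3.44% of all genes tested. The list median log2 change was 0.16, and 0.33 without combination replicate 2. The 3 with the lowest p are kinases that phosphorylate p47phox. MAPK14, the p38 kinase, measured 226 and 179 CPM in the combination, against 100 and 91.7 CPM in DMSO (log2 change 1.07, edgeR adjusted p = 0.0114). PRKCD, a protein kinase C, had 189 CPM in both combination libraries, against 120 and 119 CPM in DMSO (log2 change 0.66, edgeR adjusted p = 0.0195). MAPK3, one of the ERK kinases, had 34.6 and 43.8 CPM in the combination, against 19.4 and 21.7 CPM in DMSO (log2 change 0.93, edgeR adjusted p = 0.021). The other called genes, named after their values were seen, were the Rac effector kinase PAK1 (0.65) and the phospholipase PLD1 (1.28).

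Ion channels and transporters that balance the charge carried by the oxidase had a median log2 change of 0.31 over 7 genes. None was called lower (3.44% of all genes tested) and 1 was called higher (5.85% of all genes tested). It was CLCN4, a chloride-proton exchanger, with 13.4 and 9.92 CPM in the combination, against 2.98 and 3.32 CPM in DMSO (log2 change 1.89, edgeR adjusted p = 0.00576). Of 11 genes that supply NADPH none was called higher or lower by edgeR (5.85% and 3.44% of all genes tested). Their median log2 change was 0.32, and 0.23 without combination replicate 2. The 3 with the lowest p were TALDO1 and TKT, enzymes of the pentose phosphate pathway, with log2 changes of 1.09 (edgeR adjusted p = 0.0573) and 0.61 (0.0786), and IDH2, the mitochondrial isocitrate dehydrogenase that makes NADPH, with 0.53 (0.0957).

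Enzymes that use or remove the oxidants had 2 of 20 tested genes called higher and none lower in the combination, beside 5.85% and 3.44% of all genes tested. The list median log2 change was 0.32, and 0.03 without combination replicate 2. MPO, myeloperoxidase, turns hydrogen peroxide into hypochlorous acid, and it measured 1421 and 2214 CPM in the combination, 689 and 897 CPM with VTP50469, 99.7 and 106 CPM with WM1119, and 48.6 and 40 CPM in DMSO. Its log2 change was 5.36 in the combination (edgeR adjusted p = 0.00119) and 4.16 with VTP50469 (edgeR adjusted p = 0.0113), the one call of a listed gene with VTP50469 other than CYBB outside the marker lists. GSR, glutathione reductase, rose by 0.54 on the log2 scale (edgeR adjusted p = 0.0439), and PRDX5, a peroxiredoxin, had 1.63 (edgeR adjusted p = 0.0632), with 114 and 313 CPM in the combination, against 69.2 and 68.8 CPM in DMSO.

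Factors described at the CYBB, CYBA, NCF1 or NCF4 genes had 5 of 19 tested genes called higher and 2 lower (median log2 change 0.02). Over all genes tested 5.85% were called higher and 3.44% lower. SPI1, which encodes PU.1, measured 243 and 417 CPM in the combination, 179 and 194 CPM with VTP50469, 212 and 188 CPM with WM1119, and 140 and 149 CPM in DMSO (combination log2 change 1.19, edgeR adjusted p = 0.0324). SPI1 was higher in combination replicate 2 than in replicate 1, as were CYBA, NCF1, NCF4 and, by a small margin, RAC2, whereas CYBB was lower. CEBPE, a factor of late granulocyte maturation, measured 9.46 and 26 CPM in the combination, against 0.433 and 0.569 CPM in DMSO (log2 change 5.11, edgeR adjusted p = 0.00623). CEBPD, a relative of it, measured 64.5 and 122 CPM in the combination, against 22.5 and 22.6 CPM in DMSO (log2 change 2.05, edgeR adjusted p = 0.0107). The others, named after their values were seen, were CEBPA (0.79) and CEBPB (0.82), called higher, and IRF8 (-0.90), a partner of PU.1, and MEIS1 (-2.15), a HOX cofactor, called lower. Of the 17 listed genes named here as called in the combination, MPO was called in all 8 fits that left out 1 library, and the other 16 lost the call in 2 to 6 of these fits (highest edgeR adjusted p of each between 0.0982 and 0.317). Without combination replicate 2, all 25 genes named from these lists kept their direction and the 17 calls were kept, but 10 changes were over 1.5 times smaller. These were NCF1B (1.63), NCF1C (1.11), C17orf62 (0.53), RAC1 (0.10), TALDO1 (0.59), TKT (0.35), IDH2 (0.31), PRDX5 (0.74), SPI1 (0.77) and CEBPA (0.52), of which C17orf62, TALDO1, TKT and PRDX5 were called in that fit and not with all libraries.

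**Figure D4:**
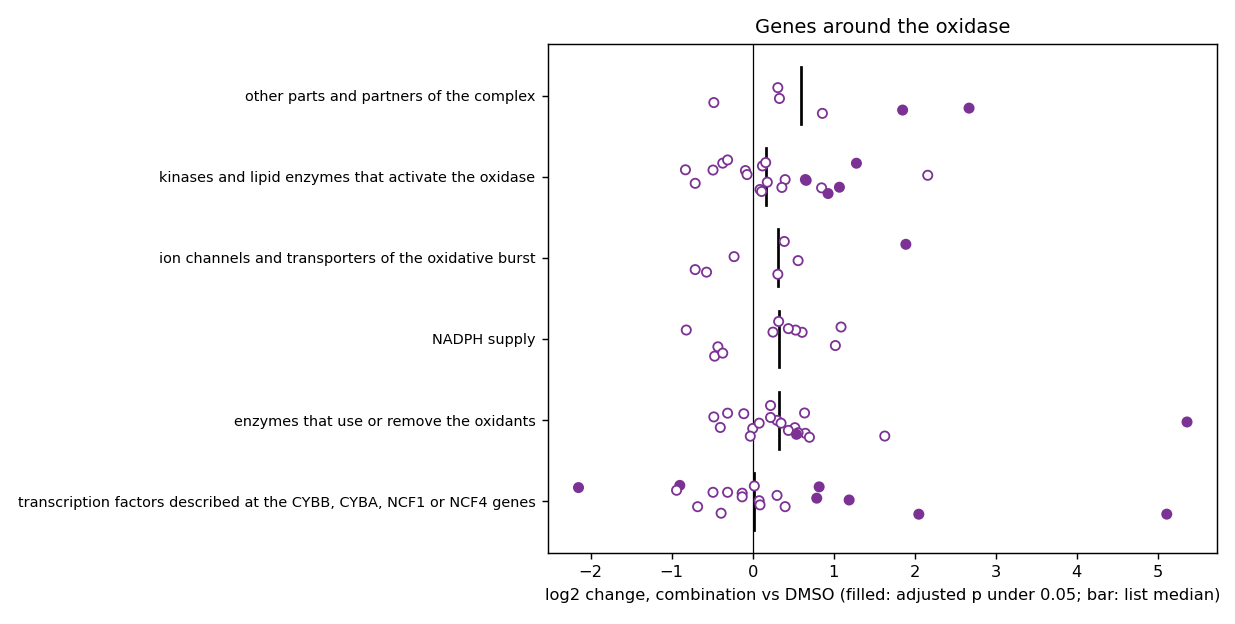
Log2 change of the combination against DMSO (horizontal axis) for each tested gene of 6 lists around the oxidase (vertical axis); filled points have an edgeR adjusted p under 0.05, and the bars are list medians. Medians lie between 0.02 and 0.32 except for the complex partners (0.59, or 0.32 without the NCF1 copies), and single genes such as MPO (5.36) and CEBPE (5.11) lie far to the right.

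The genes most like each subunit were ranked by Pearson correlation of log2(CPM + 1) over the 8 libraries, among 11678 genes. The 8 libraries share 4 treatments and the library that stands apart, so likeness is given as a description. CYBB was most like GBE1 (0.996), ZDHHC3 (0.996) and FAM46A (0.993). CYBA was most like SH3BGRL3 (0.998), LINC00152 (0.998) and NKG7 (0.997), and NCF1 like its own pseudogene NCF1C (0.995), ATG16L2 (0.995) and HDAC5 (0.993). NCF4 was most like NPC2 (0.998), OS9 (0.997) and SLC38A10 (0.997), and RAC2 like RAB3D (0.991), SENP8 (0.989) and FANCG (0.986). With 0.25 or 5 in place of the added 1, each subunit kept at least 2 of its 3 genes. Lists of 3 are too short to tell if the subunits differ in pattern. Correlations between subunits ran from 0.53 (CYBA and CYBB) to 0.99 (NCF1 and NCF4). Without combination replicate 2 these pairs had 0.44 and 0.98.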

How the data were processed

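Bulk RNA of 8 MOLM-13 libraries was sequenced by the authors as 150 bp paired-end reads and mapped to hg38 with STAR 2.5.1b. The values the authors deposited are expected counts for each gene symbol without normalization, of which 11.4% to 16.6% per library are not whole. No source used here names the counting tool, its strand setting or its annotation, and the labels and the paper name different media and kits. Counts were rounded and tested with edgeR 4.0.16 (R 4.3.3; TMM factors, filterByExpr, quasi-likelihood F test; common dispersion 0.0457; 4 residual and 2.88 prior degrees of freedom), checked on simulated counts. Groups follow the treatment labels. The 2 libraries of each group were not duplicates: 0.3% to 0.71% of genes with a mean of at least 10 counts had equal values. Alternatives were DESeq2 1.42.0 (the test the authors name), RLE factors, library size only, a minimum of 10 counts per library, no filter, a robust fit, a replicate block, only the groups compared, length offsets (loess span 0.4, longest GENCODE 44 transcript, 92.1% of tested genes) and leaving out each library. Summing the NCF1 copies, the canonical length, the lists without combination replicate 2 and the partners without the copies were added after the data were seen. Wilson intervals cover counting error only, and the intervals of log2 changes come from the edgeR fit. The 5 genes and all lists were chosen with earlier results of these data known. Named were all 5 subunits, all tested partners, the genes called in the combination (otherwise the 3 with the lowest p) in lists of up to 12, and the 3 with the lowest p in longer lists. Some genes and gene lists around the complex are not reported here.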

Additional observations from a re-analysis of the deposited data

How the results depend on the processing

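The number of the 5 subunits called in the combination against DMSO, 3 with all libraries, was 5 with DESeq2, 1 with the replicate block (CYBB) and 0 when only the groups compared were fitted (0 of all genes were then called), and it ranged from 1 to 5 when 1 library was left out. With VTP50469, 1 became 0 with library size only, 0 with the replicate block and 2 with only the groups compared (CYBB and RAC2, where 11.1% of all genes were called, against 0.169%), and ranged from 0 to 1 without 1 library. In the combination against VTP50469, 0 became 4 with DESeq2 and 1 with length offsets (CYBB), and ranged from 0 to 4 without 1 library. Against WM1119, 1 became 3 with DESeq2, 0 with only the groups compared and 2 with length offsets, and ranged from 0 to 4. The interaction count of 0 ranged from 0 to 3 without 1 library. With WM1119 against DMSO the count was 0 in each of the 19 alternatives run. Over all genes, 1152 were called in the combination against DMSO, against 2288 with DESeq2, 2131 with length offsets, 528 with the replicate block and 69 to 7756 without 1 library. Without 1 library, calls over all genes ran from 0 to 419 with VTP50469 (21 with all), 0 to 176 with WM1119 (0), 0 to 7222 in the combination against VTP50469 (49), 1 to 6915 against WM1119 (177) and 0 to 3938 for the interaction (0), and DESeq2 called 204, 82, 684, 714 and 5. In the combination against DMSO the count of subunits was also 4 with no count filter (7.2% of all genes called) and 4 with length offsets (17.2%). The causes were not tested. Fits without 1 library, or of only the groups compared, rest on fewer samples, and calls over all genes moved both ways without 1 library. Between the combination replicates 2587 genes were over 2-fold apart, against 188 to 312 in the other groups (genes with a mean of at least 10 counts). The part of this in the calls was not tested.

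Directions turned in 8 fits of uncalled values, of which those of RAC2 were near 0 with all libraries and that of CYBA was not. RAC2 in the combination against VTP50469 was -0.16 with length offsets and -0.17 with the replicate block and length offsets. The RAC2 interaction was 0.01 with DESeq2, 0.02 with RLE factors, 0 with at least 10 counts in every library, 0.01 without VTP50469 replicate 2 and 0.06 without WM1119 replicate 1, and without 1 library it ran from -0.06 to 0.06. The CYBA interaction, 0.83 with all libraries, was -0.04 without combination replicate 2 and ran up to 1.37 without 1 library. Over the 6 pairs of groups, the differences between replicate 1 and 2 correlated between -0.66 and 0.35 across genes. The length trends of single libraries enter these correlations, so they cannot decide if the replicate numbers pair the samples. With the replicate block NCF1 and NCF4 in the combination had edgeR adjusted p of 0.0601 and 0.0531. The interaction fit of only the groups compared is the same as the fit of all groups and was not run. The lowest subunit value behind these results was 513 expected counts (NCF4 in DMSO replicate 1).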
